A study of Arabidopsis thaliana with 8 samples.

Results

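The genes described here are the nuclear genes of the photosynthetic antenna, of the nuclear-encoded subunits of both photosystems and of the Rubisco small subunit in Arabidopsis thaliana. They were chosen by locus from a list of LHCA, LHCB, PSA, PSB and RBCS genes, and all 47 listed loci were rows of the count table of 33674 features. They fall into 6 genes of the photosystem I antenna (LHCA), 15 of the photosystem II antenna (LHCB), 12 photosystem I subunits (PSA), 10 photosystem II subunits (PSB) and 4 Rubisco small subunit genes (RBCS). Seedlings were Columbia-0 (wild type) or skip-1, a mutant line of the splicing and transcription factor gene SKIP, at 13 days of age. Abscisic acid (ABA), the hormone of drought responses, was given at 100 µM for 3 h to a group of each genotype, and the groups at 0 µM are called mock. The seedlings grew under 16 h of light and 8 h of dark, at 22 °C by day and 18 °C by night. Each of the 4 groups of genotype and ABA had 2 libraries of RNA from seedlings. The skip-1 line is the only mutant line, the labels do not describe its lesion, and any other difference that this line carries cannot be told apart from the loss of SKIP function.

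Light is collected by chlorophyll-binding proteins that surround the 2 photosystems. LHCB proteins serve mainly photosystem II, which splits water, and LHCA proteins serve photosystem I, which reduces ferredoxin. Rubisco fixes carbon dioxide, and its small subunits are nuclear-encoded whereas its large subunit is encoded in the chloroplast. Nuclear genes of these proteins are expressed in green tissue and are classically regulated by light, by the circadian clock and by signals from the chloroplast.

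The libraries held 20870110 to 23640113 counted reads. Levels across samples are given in CPM (counts scaled to the library total, with factors by trimmed mean of M values), and levels between genes in FPKM, the authors' count scaled by gene length and by the column total. Changes are log2 fold changes ± an approximate standard error, and a gene was called where the edgeR quasi-likelihood test gave a Benjamini-Hochberg adjusted p under 0.05 over all 21008 features tested. All 47 genes passed the low-count filter. SKIP itself was 150.5 and 163 CPM in mock wild type, 136 and 161 CPM in ABA-treated wild type, 104 and 133 CPM in mock skip-1, and 108 and 125 CPM in ABA-treated skip-1. It was lower in both skip-1 groups than in the matched wild type groups, but neither difference passed the threshold (−0.40 ± 0.15, adjusted p = 0.0822 without ABA and −0.35 ± 0.15, adjusted p = 0.1 with ABA). The labels do not say whether the 2 libraries of a group came from separately grown seedlings, and p-values therefore reflect the spread between libraries, which may be technical. In whole seedlings, fewer green cells and less RNA of these genes per cell cannot be told apart.

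As a group these genes are among the most abundant transcripts of the seedlings. By mean FPKM, 12 of the 20 highest features in mock wild type belonged to the 47, against 4 of 20 in ABA-treated wild type, 17 of 20 in mock skip-1 and 13 of 20 in ABA-treated skip-1. LHCB1.3 had the highest level of any feature in mock wild type (16732 ± 2338 FPKM, SD, n = 2) and RBCS1A the second highest (9909 ± 557 FPKM). At the other end, LHCB7 had 6.81 ± 0.586 FPKM, LHCB4.3 13.4 ± 2.9 FPKM, LHCB2.3 43.3 ± 26.4 FPKM, LHCA6 53.0 ± 11.2 FPKM and LHCA5 70.0 ± 4.27 FPKM in the same group. The 47 genes together took 9.7 and 9.26% in mock wild type, 5.6 and 4.72% in ABA-treated wild type, 14.6 and 14.0% in mock skip-1, and 9.2 and 8.72% in ABA-treated skip-1 of all counted reads. Both skip-1 libraries without ABA thus lay above every other library and both wild type libraries with ABA below every other. The summed level was 89877 ± 1975 CPM in mock wild type, 56548 ± 7216 CPM in ABA-treated wild type, 138850.0 ± 844 CPM in mock skip-1 and 89007 ± 2462 CPM in ABA-treated skip-1 (mean ± SD, n = 2). The skip-1 sum with ABA was 0.99 times the wild type sum without ABA.

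**Figure D1:**
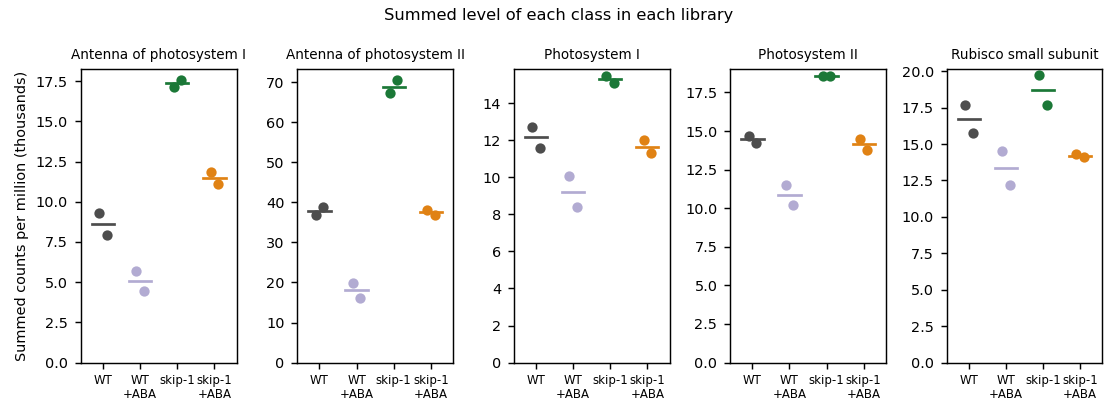
Summed level of each class (TMM-scaled CPM in units of 1000, y axis from 0) in the 4 groups; each point is a library and each line the mean of 2 libraries. The photosystem II antenna had 37910.4 summed CPM in mock wild type and 68908 in mock skip-1, whereas the Rubisco small subunit had 16735 and 18701.

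The classes moved by unequal amounts. With ABA, the summed level in wild type was 0.475 times the level without ABA for LHCB, 0.587 for LHCA, 0.752 for photosystem II, 0.76 for photosystem I and 0.799 for Rubisco. In skip-1 these ratios were 0.545, 0.661, 0.762, 0.762 and 0.759. Without ABA, skip-1 had 2.02 times the wild type sum for LHCA, 1.82 times for LHCB, 1.28 times for photosystem II, 1.26 times for photosystem I and 1.12 times for Rubisco. With ABA, the same ratios were 2.27, 2.08, 1.3, 1.26 and 1.06. The ratios are descriptions, and no test of one class against another was made. Within ABA-treated skip-1, the LHCB sum was 0.99 times that of mock wild type, the LHCA sum 1.33 times and the Rubisco sum 0.848 times.

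**Figure D2:**
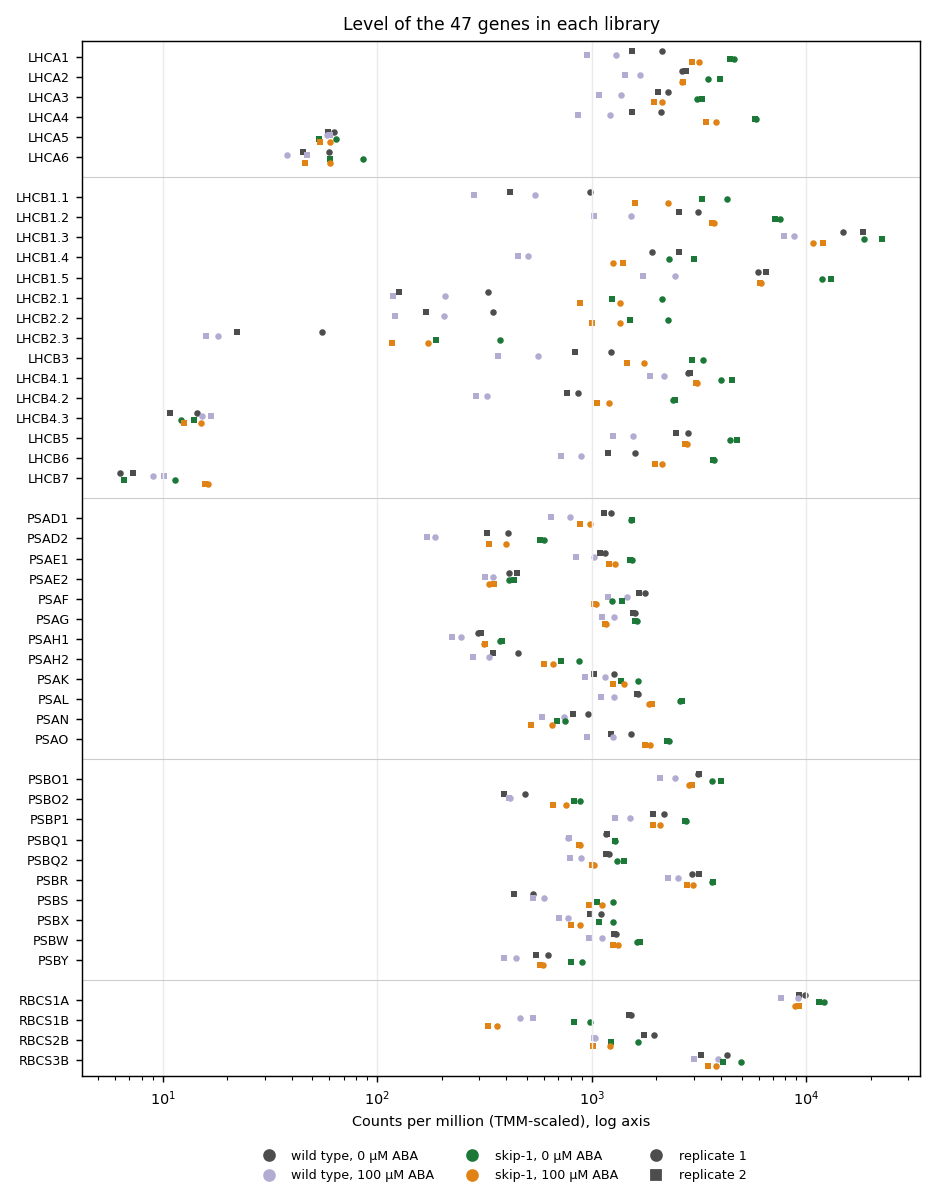
Level of each of the 47 genes (TMM-scaled CPM, log axis) in each of the 8 libraries, by class from LHCA (top) through LHCB, photosystem I and photosystem II to Rubisco (bottom). LHCB2.2, for example, lies at 122 to 348 CPM in the wild type libraries and at 1003 to 2261 in the skip-1 libraries.

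ABA in wild type, the comparison that asks what 3 h of the hormone did in the intact genotype, lowered many of these genes and raised none past the threshold. Of the 47, 29 fell and 0 rose, where 19.5% of all features tested were called lower, 23.7% higher and 43.1% either way. At an unadjusted p under 0.05, edgeR had 0 higher, and DESeq2 called 0 higher and 32 lower. The median change over the 47 was −0.49, against −0.01 over all features. By class, 9 of 15 LHCB genes fell (median −0.91), 4 of 6 LHCA genes (−0.74), 7 of 10 photosystem II genes (−0.48), 7 of 12 photosystem I genes (−0.38) and 2 of 4 RBCS genes (−0.52). The largest falls were those of LHCB1.4 (−2.22 ± 0.18), RBCS1B (−1.59 ± 0.13), LHCB1.5 (−1.58 ± 0.17) and LHCB4.2 (−1.41 ± 0.12). Scaling by library size alone moved the median of all features from −0.01 to −0.22 and that of the 47 genes to −0.70, a difference of −0.48. It also moved the share of higher genes among all calls from 54.9% to 36%, and upper-quartile scaling moved it to 35.8%. Without replicate 2 of ABA-treated wild type, 17 of the 47 genes fell, and 17 of the 29 calls stood without each of the 8 libraries in turn.

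ABA in skip-1 gave a similar list. Of the 47 genes, 26 fell and 1 rose, where 12.1% of all features were called lower and 16.3% higher. The median change was −0.47, against −0.02 over all features. The calls covered 9 of 15 LHCB genes lower and 1 higher, 3 of 6 LHCA genes, 8 of 10 photosystem II genes, 5 of 12 photosystem I genes and 1 of 4 RBCS genes. In both genotypes 25 genes fell, which is 25 of the 29 calls in wild type and 25 of the 26 in skip-1. The share of all features that fell in both genotypes was not counted, so this overlap is a description only. LHCA1, RBCS2B, PSAF and PSAH1 passed in wild type alone and PSBW in skip-1 alone, and none of these 5 had a difference of the ABA effects past the threshold. LHCA1 was called lower in skip-1 as well by DESeq2, with upper-quartile scaling, with library size alone, with no filter, in the 2-group fit and without any 1 of the 4 wild type libraries. PSBW was called lower in wild type as well by DESeq2, with those scalings, with no filter, and without replicate 1 of ABA-treated wild type or of mock skip-1. PSAF and PSAH1 passed in skip-1 with either of these scalings, and RBCS2B with upper-quartile scaling or without replicate 2 of mock skip-1. The count in skip-1 was 10 without replicate 2 of ABA-treated skip-1, 13 without replicate 1 of that group and 16 without replicate 2 of mock skip-1. Upper-quartile scaling moved the share of higher genes among all calls in skip-1 from 57.4% to 37.1%.

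**Figure D3:**
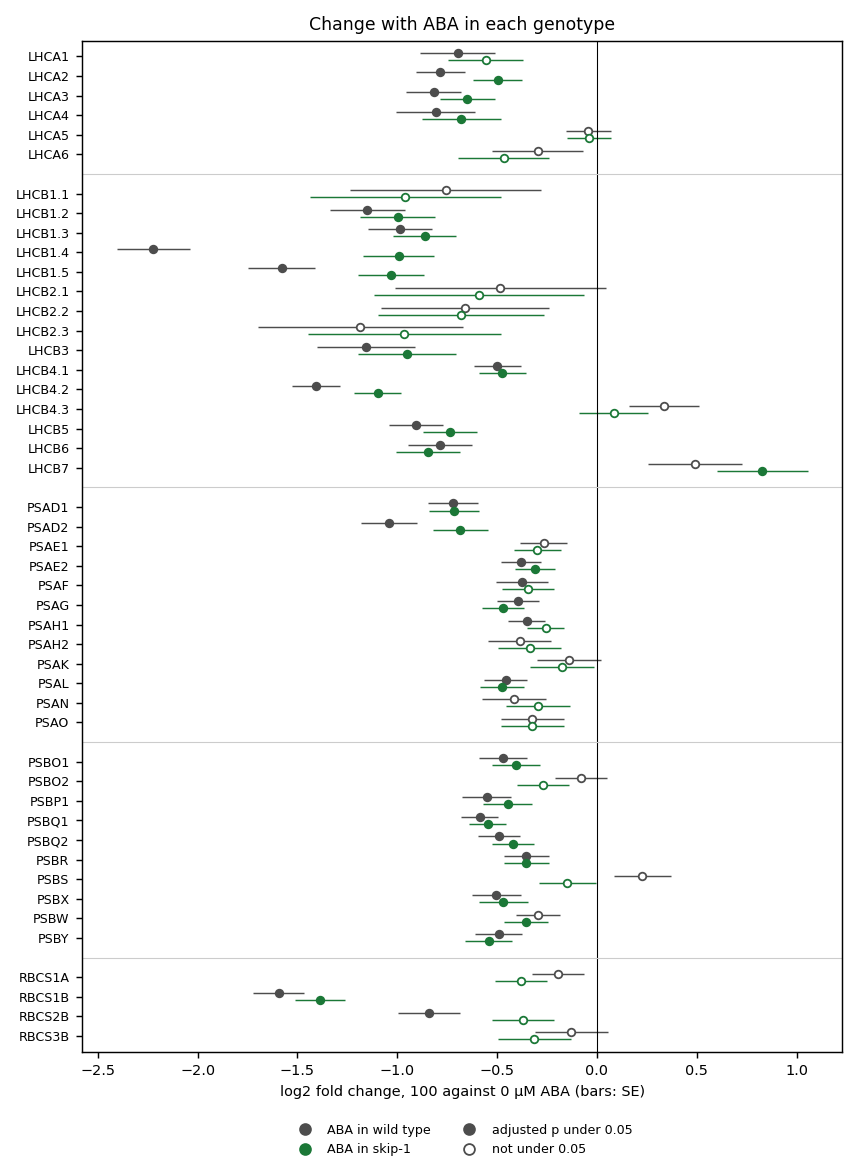
Log2 fold change of each gene with 100 against 0 µM ABA in wild type (grey) and in skip-1 (green), with bars of 1 approximate standard error; filled points had an adjusted p under 0.05. Most points lie below 0 in both genotypes, 44 of 47 in wild type and 45 of 47 in skip-1.

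Mock skip-1 against mock wild type compares the lines at 0 µM ABA. In skip-1, 26 of the 47 genes were higher and 1 (RBCS1B) was lower, where 10.4% of all features were called higher and 10% lower. The median difference was 0.44, against 0.02 over all features. The higher genes were 11 of 15 LHCB genes (median 1.37), 4 of 6 LHCA genes (0.53), 6 of 12 photosystem I genes (0.39) and 5 of 10 photosystem II genes (0.32), and none of the 4 RBCS genes (1 of 4 higher at an unadjusted p under 0.05 in edgeR, and 0 called by DESeq2). The 3 LHCB2 genes and LHCB1.1 had the largest differences. The count of higher genes was 12 without replicate 2 of mock wild type and 16 without replicate 1 of mock skip-1. Of all 27 calls, 13 stood without each library in turn, and these were LHCA1, LHCA4, LHCB1.2, LHCB1.5, LHCB2.2, LHCB3, LHCB4.2, LHCB6, PSAH2, PSAL, PSBO2, PSBS and RBCS1B.

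With ABA, 28 of the 47 genes were higher in skip-1 and 1, again RBCS1B, was lower, where 13.6% of all features were called higher and 17.4% lower. The median was 0.52, against −0.02 over all features. The higher genes were 13 of 15 LHCB genes (median 1.53), 4 of 6 LHCA genes (0.75), 7 of 12 photosystem I genes (0.39), 4 of 10 photosystem II genes (0.33) and no RBCS gene (0 higher at an unadjusted p under 0.05 in edgeR, and 0 called by DESeq2). In both conditions 25 genes were higher, which is 25 of 26 without ABA and 25 of 28 with it. Without replicate 2 of ABA-treated wild type, the count was 17, and 17 of all 29 calls stood without each library in turn. Library size alone gave 35 higher and moved the share of higher genes among all calls from 43.9% to 62.6% and the median of all features to 0.12. Upper-quartile scaling gave a share of 55.4%. The comparisons of ABA and of genotype share control libraries. The 14 genes with all 4 calls (lower with ABA and higher in skip-1) are therefore given as a count only. The share of all features with these 4 calls, or called higher in both conditions, was not counted. Neither the 14 nor the 25 is read as a result about the 47 genes.

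**Figure D4:**
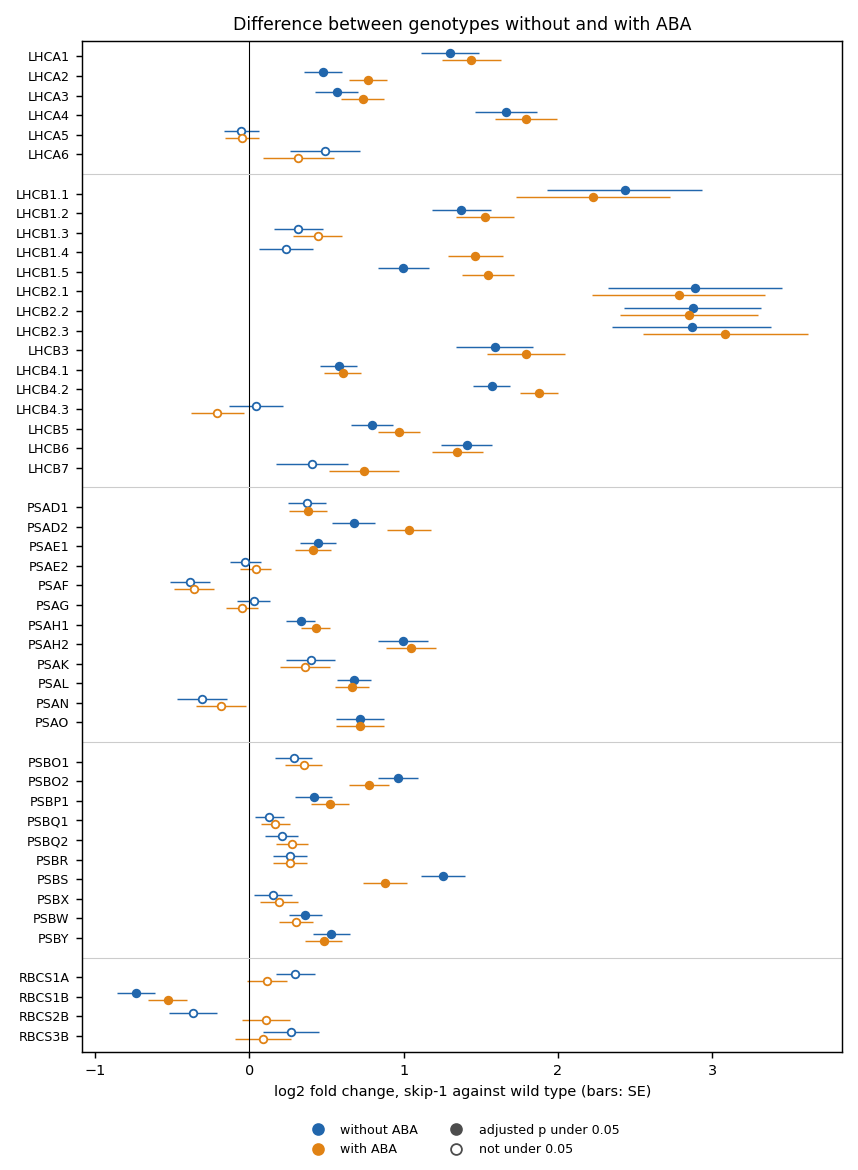
Log2 fold change of skip-1 against wild type for each gene without ABA (blue) and with ABA (orange), with bars of 1 approximate standard error; filled points had an adjusted p under 0.05. The LHCB2 genes and LHCB1.1 lie above 2 and RBCS1B below 0 in both conditions.

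The difference between the ABA effects of the 2 genotypes passed the threshold for 1 of 47 genes, where 0.8% of all features were called higher, 2.27% lower and 3.07% either way. That gene was LHCB1.4. The median difference over the 47 was 0.04, against −0.02 over all features. For 39 of the 47 genes, the 95% interval of the difference lay within −1 to 1 on the log2 scale, so a 2-fold difference of the ABA effects was outside the interval. Those 39 included all 6 LHCA, 12 photosystem I, 10 photosystem II and 4 RBCS genes. The other 8 were LHCB1.1, LHCB1.4, LHCB1.5, LHCB2.1, LHCB2.2, LHCB2.3, LHCB3 and LHCB7, whose intervals reached or passed that bound. For LHCB2.1 it ran from −1.9 to 1.7. The other large values were 0.55 ± 0.23 for LHCB1.5 and 0.47 ± 0.22 for RBCS2B on the positive side and −0.37 ± 0.20 for PSBS, −0.25 ± 0.24 for LHCB4.3 and −0.20 ± 0.67 for LHCB1.1 on the negative side, none past the threshold. Scaling by library size alone moved the share of higher genes among all calls of this comparison from 26.1% to 55.5%, and upper-quartile scaling to 38.8%.

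Within the LHCB1 family, which encodes the main trimer protein of the photosystem II antenna, the 3 tandem genes on chromosome 1 behaved unequally between genotypes. LHCB1.2 (AT1G29910, chromosome 1, 10472280 to 10473502, minus strand), LHCB1.1 (AT1G29920, chromosome 1, 10474656 to 10475969, minus strand) and LHCB1.3 (AT1G29930, chromosome 1, 10477885 to 10479114, plus strand) lie side by side, each annotated with 1 exon (TAIR10.1). Their coding sequences of 804 bases share 95.6% to 96.4% of bases. The first 120 coding bases are shown to compare the copies, with the 9 differing columns in capitals.
LHCB1.1: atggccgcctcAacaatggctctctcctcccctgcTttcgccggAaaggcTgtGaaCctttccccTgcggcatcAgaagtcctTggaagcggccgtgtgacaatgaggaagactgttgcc
LHCB1.2: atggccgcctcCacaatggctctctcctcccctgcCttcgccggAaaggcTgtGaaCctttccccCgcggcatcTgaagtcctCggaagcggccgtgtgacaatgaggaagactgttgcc
LHCB1.3: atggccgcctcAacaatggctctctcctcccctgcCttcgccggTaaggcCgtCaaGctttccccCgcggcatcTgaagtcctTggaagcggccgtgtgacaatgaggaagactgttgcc

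Of all 50-base windows in the annotated transcripts, 20.5% in LHCB1.1, 10.6% in LHCB1.2, 17% in LHCB1.3, 13.7% in LHCB1.4 and 17.3% in LHCB1.5 also occur in another of the 47 genes. How reads from such stretches were assigned is not stated, and levels of single LHCB1 genes are uncertain to that extent. The 200 bases upstream of the annotated starts (RefSeq, TAIR10.1) are shown for LHCB1.1 and LHCB2.2, which had large differences between genotypes, and for LHCB1.2 and LHCB1.3, their neighbours or relatives with smaller ones. Each is written on the gene's own strand, and capitals mark matches to short elements (ABRE core, CCA1-binding element or CCAATC), of which LHCB1.2 has none.
LHCB1.1, chr1:10475970-10476169, minus strand: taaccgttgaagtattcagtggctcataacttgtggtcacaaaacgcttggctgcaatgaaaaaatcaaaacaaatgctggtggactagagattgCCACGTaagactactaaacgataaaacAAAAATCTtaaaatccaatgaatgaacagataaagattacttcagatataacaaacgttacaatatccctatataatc
LHCB1.2, chr1:10473503-10473702, minus strand: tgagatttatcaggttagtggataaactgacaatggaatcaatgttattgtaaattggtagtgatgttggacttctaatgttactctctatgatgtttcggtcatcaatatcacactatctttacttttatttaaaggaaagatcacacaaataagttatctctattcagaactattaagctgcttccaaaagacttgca
LHCB1.3, chr1:10477685-10477884, plus strand: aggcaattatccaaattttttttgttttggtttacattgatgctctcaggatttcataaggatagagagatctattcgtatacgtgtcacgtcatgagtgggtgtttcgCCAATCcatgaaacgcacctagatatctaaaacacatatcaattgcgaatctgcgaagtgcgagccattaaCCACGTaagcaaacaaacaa
LHCB2.2, chr2:1800473-1800672, minus strand: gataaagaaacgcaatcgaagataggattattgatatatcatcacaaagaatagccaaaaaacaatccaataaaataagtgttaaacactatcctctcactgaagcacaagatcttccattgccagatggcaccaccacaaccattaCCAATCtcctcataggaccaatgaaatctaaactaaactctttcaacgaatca

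LHCB1.1 was 984 and 417 CPM in mock wild type, 546 and 282 CPM in ABA-treated wild type, 4272 and 3284 CPM in mock skip-1, and 2283 and 1601 CPM in ABA-treated skip-1. Every skip-1 library lay above every wild type library, and replicate 1 lay above replicate 2 in each group. The difference between genotypes was 2.43 ± 0.50, adjusted p = 0.0203 without ABA and 2.23 ± 0.50, adjusted p = 0.0185 with ABA. The call without ABA was lost without replicate 2 of mock wild type, replicate 1 of mock skip-1 or replicate 2 of mock skip-1 (largest adjusted p = 0.103), and the call with ABA without replicate 2 of ABA-treated wild type or replicate 1 of ABA-treated skip-1 (largest adjusted p = 0.0833). The ABA effects did not pass the threshold (−0.76 ± 0.48, adjusted p = 0.252 in wild type and −0.96 ± 0.48, adjusted p = 0.188 in skip-1).

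LHCB1.2 was 3118 and 2558 CPM in mock wild type, 1532 and 1026 CPM in ABA-treated wild type, 7528 and 7189 CPM in mock skip-1, and 3725 and 3647 CPM in ABA-treated skip-1. The groups did not overlap, with mock skip-1 highest and ABA-treated wild type lowest. It was higher in skip-1 by 1.37 ± 0.19, adjusted p = 0.00265 without ABA and 1.53 ± 0.19, adjusted p = 0.00107 with ABA. It fell with ABA with a log2 change of −1.15 ± 0.19 in wild type and −1.0 ± 0.19 in skip-1, and all 4 calls stood without each library. LHCB1.3, the most abundant of the family, was 14819 and 18349 CPM in mock wild type, 8824 and 7904 CPM in ABA-treated wild type, 18672 and 22655 CPM in mock skip-1, and 10772 and 11948 CPM in ABA-treated skip-1. Both libraries with ABA were lower than both without ABA within each genotype, whereas replicate 2 of mock wild type nearly reached replicate 1 of mock skip-1. LHCB1.3 fell with ABA in wild type (−0.99 ± 0.16, adjusted p = 0.00121) and in skip-1 (−0.86 ± 0.16, adjusted p = 0.00447), and its difference between genotypes did not pass the threshold (0.32 ± 0.16, adjusted p = 0.186 without ABA and 0.44 ± 0.16, adjusted p = 0.0629 with ABA). With ABA, however, LHCB1.3 was called higher in skip-1 by DESeq2, with upper-quartile scaling, with library size alone and in the 2-group fit.

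LHCB1.4 and LHCB1.5 are neighbours on chromosome 2. LHCB1.5 was 5991 and 6523 CPM in mock wild type, 2453 and 1734 CPM in ABA-treated wild type, 11889.6 and 13110.1 CPM in mock skip-1, and 6149.5 and 6076 CPM in ABA-treated skip-1. Skip-1 lay above wild type in both conditions (1.0 ± 0.17, adjusted p = 0.00563 and 1.55 ± 0.17, adjusted p = 0.000663), and ABA lowered it in both genotypes (−1.58 ± 0.17 and −1.03 ± 0.17). LHCB1.4 was 1922 and 2566 CPM in mock wild type, 508 and 454 CPM in ABA-treated wild type, 2294 and 2987 CPM in mock skip-1, and 1256 and 1396 CPM in ABA-treated skip-1. The wild type libraries with ABA were far below all others, and the genotypes overlapped without ABA. It fell with ABA with a log2 change of −2.22 ± 0.18, adjusted p = 2.69e-05 in wild type and −0.99 ± 0.18, adjusted p = 0.00374 in skip-1. The difference of these effects was 1.23 ± 0.25 (95% interval 0.66 to 1.79, adjusted p = 0.0405). That call was lost without each library in turn except replicate 2 of mock skip-1, with adjusted p up to 0.12. The genotypes differed with ABA (1.46 ± 0.18, adjusted p = 0.000984) and not past the threshold without it (0.23 ± 0.17, adjusted p = 0.37).

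The make-up of the LHCB1 family therefore differed between genotypes. LHCB1.3 made up 55.2 and 60.1% in mock wild type, 63.7 and 69.3% in ABA-treated wild type, 42.0 and 46.1% in mock skip-1, and 44.8 and 48.5% in ABA-treated skip-1 of the summed LHCB1 FPKM. Its share was lower in every skip-1 library than in every wild type library. LHCB1.1 held 3.25 and 1.21% in mock wild type, 3.5 and 2.2% in ABA-treated wild type, 8.54 and 5.93% in mock skip-1, and 8.42 and 5.77% in ABA-treated skip-1, with every skip-1 library above every wild type library. With the 5 genes summed, LHCB1 was higher in skip-1 by 0.70 ± 0.14 without ABA (adjusted p = 0.011), and under ABA by 0.95 ± 0.14 (adjusted p = 0.00213). The sum does not depend on how counted reads were split among the 5 genes. Whether reads that fit several copies were counted at all is not stated, and their loss would affect the sum. The sum fell with ABA by 1.21 ± 0.14 on the log2 scale in wild type and by 0.96 ± 0.14 in skip-1.

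**Figure D5:**
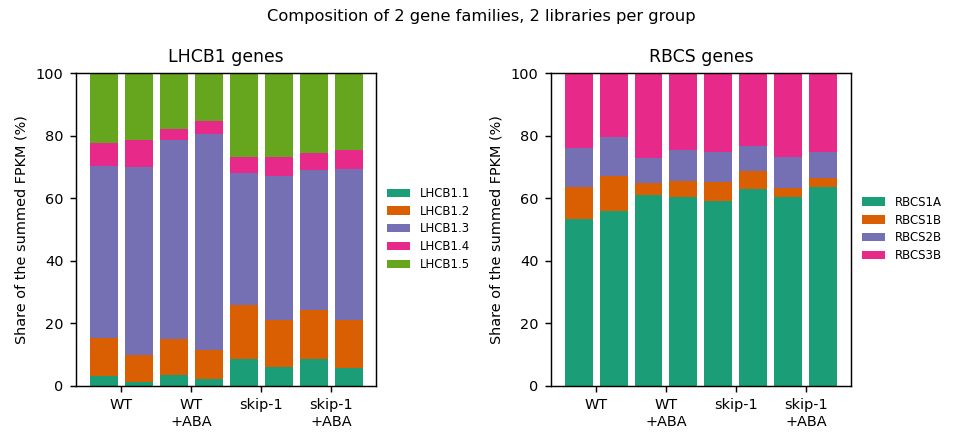
Share of each gene in the summed FPKM of its family (percent, bars from 0 to 100) for the 5 LHCB1 genes (left) and the 4 RBCS genes (right), 1 bar per library in the order replicate 1 and 2. LHCB1.3 took 55.2% and 60.1% in mock wild type and 42% and 46.1% in mock skip-1, and RBCS1B 10.3% and 11.3% against 6.05% and 5.73%.

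The 3 LHCB2 genes encode another main protein of the photosystem II trimers, a protein phosphorylated in state transitions. LHCB2.2, whose upstream bases are printed with the LHCB1 copies, was 348 and 168 CPM in mock wild type, 205 and 122 CPM in ABA-treated wild type, 2261 and 1517 CPM in mock skip-1, and 1354 and 1003 CPM in ABA-treated skip-1. Every skip-1 library lay above every wild type library. LHCB2.1 was 329 and 126 CPM in mock wild type, 207 and 119 CPM in ABA-treated wild type, 2122 and 1245 CPM in mock skip-1, and 1353 and 885 CPM in ABA-treated skip-1, and LHCB2.3, the weakest of the family, was 55.2 and 22.3 CPM in mock wild type, 18.2 and 15.9 CPM in ABA-treated wild type, 375 and 189 CPM in mock skip-1, and 172 and 117 CPM in ABA-treated skip-1. Within each group the first library was above the second, by up to 2.61-fold for LHCB2.1 in mock wild type. The genotype differences without ABA were 2.89 ± 0.56 for LHCB2.1, 2.87 ± 0.45 for LHCB2.2 and 2.87 ± 0.52 for LHCB2.3 (adjusted p = 0.0174, 0.00855 and 0.0136). With the 3 genes summed, skip-1 was higher by 2.87 ± 0.50 without ABA (adjusted p = 0.0126), and under ABA by 2.83 ± 0.50 (adjusted p = 0.00877). With ABA the single genes differed by 2.78 ± 0.56, 2.85 ± 0.45 and 3.09 ± 0.53 (adjusted p = 0.0135, 0.00563 and 0.00788). LHCB2.2 kept both calls without each library. LHCB2.1 lost its call without ABA without replicate 2 of mock wild type or replicate 1 of mock skip-1 (largest adjusted p = 0.0977) and its call with ABA without replicate 2 of ABA-treated wild type or replicate 1 of ABA-treated skip-1 (largest adjusted p = 0.0721). LHCB2.3 lost its call without ABA without replicate 2 of mock wild type or replicate 1 of mock skip-1 (largest adjusted p = 0.0668) and its call with ABA without replicate 2 of ABA-treated wild type (adjusted p = 0.0507). The ABA effects on LHCB2 were between −0.48 and −1.19 and none passed the threshold, although LHCB2.3 was called lower in wild type without replicate 2 of mock wild type. LHCB2.1 and LHCB2.2 share 92.9% of aligned coding bases and 20.2% and 19.8% of their 50-base windows with other members, whereas LHCB2.3 shares none.

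Among the minor antenna proteins, which link the trimers to the photosystem II core, LHCB4.2 (CP29) stood apart from its paralogs. LHCB4.2 was 861 and 772 CPM in mock wild type, 325 and 290.2 CPM in ABA-treated wild type, 2398 and 2451 CPM in mock skip-1, and 1206 and 1058 CPM in ABA-treated skip-1. The 4 groups did not overlap, and replicates differed by less than 1.2-fold. Skip-1 had the higher level, by 1.57 ± 0.12, adjusted p = 0.000317 without ABA and 1.88 ± 0.12, adjusted p = 0.000114 with ABA, and LHCB4.2 fell with ABA with a log2 change of −1.41 ± 0.12 in wild type and −1.1 ± 0.12 in skip-1. These 4 calls stood without each library. LHCB4.1 was 2829 and 2888 CPM in mock wild type, 2175 and 1873 CPM in ABA-treated wild type, 4016 and 4525 CPM in mock skip-1, and 3088 and 3065 CPM in ABA-treated skip-1. Its differences were smaller (0.58 ± 0.12 and 0.60 ± 0.12 between genotypes, −0.50 ± 0.12 and −0.47 ± 0.12 with ABA), and although all 4 passed the threshold, none stood without each library (between genotypes the call was lost for LHCB4.1 without either library of mock wild type (adjusted p up to 0.0772) in mock seedlings and for LHCB4.1 without replicate 2 of ABA-treated wild type (adjusted p = 0.0564) with ABA). LHCB4.3 stayed between 10.9 and 16.8 CPM in all libraries, with no call. LHCB4.2 made up 24.2 and 21.9% in mock wild type, 13.5 and 13.9% in ABA-treated wild type, 38.5 and 36.3% in mock skip-1, and 29.0 and 26.6% in ABA-treated skip-1 of the summed LHCB4 FPKM.

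LHCB5 (CP26), LHCB6 (CP24) and LHCB3, a further trimer subunit, were all lower with ABA and higher in skip-1. LHCB6 was 1589 and 1195 CPM in mock wild type, 896 and 718 CPM in ABA-treated wild type, 3722 and 3663 CPM in mock skip-1, and 2141 and 1967 CPM in ABA-treated skip-1. The groups did not overlap. It was higher in skip-1 by 1.41 ± 0.16, adjusted p = 0.00136 without ABA and 1.35 ± 0.16, adjusted p = 0.00097 with ABA. LHCB5 was higher by 0.80 ± 0.14 and 0.97 ± 0.14 and LHCB3 by 1.59 ± 0.25 and 1.79 ± 0.25. With ABA, LHCB6 fell with a log2 change of −0.79 ± 0.16 in wild type and −0.85 ± 0.16 in skip-1, LHCB5 with −0.91 ± 0.14 and −0.74 ± 0.14, and LHCB3 with −1.16 ± 0.25 and −0.95 ± 0.25. LHCB7, a little studied member of the family, had the opposite sign with ABA but not between genotypes. Calls of the others were lost for LHCB5 without replicate 2 of mock wild type (adjusted p = 0.0549) in mock seedlings and for LHCB3 without either library of mock skip-1 or either library of ABA-treated skip-1 (adjusted p up to 0.13) with ABA in skip-1. LHCB7 was 6.36 and 7.29 CPM in mock wild type, 9.01 and 10.2 CPM in ABA-treated wild type, 11.4 and 6.63 CPM in mock skip-1, and 16.3 and 15.8 CPM in ABA-treated skip-1. Both skip-1 libraries with ABA lay above all others. It was higher in ABA-treated skip-1 (0.74 ± 0.23, adjusted p = 0.0392), a call lost in 6 of the 8 fits that left out 1 library. It rose with ABA in skip-1 (0.83 ± 0.23, adjusted p = 0.027), a call lost without replicate 2 of mock skip-1, replicate 1 of ABA-treated skip-1 or replicate 2 of ABA-treated skip-1 (largest adjusted p = 0.0952) and under upper-quartile scaling. In wild type its change was 0.49 ± 0.24, adjusted p = 0.128, and leaving out either library of mock skip-1 brought that comparison past the threshold.

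In the photosystem I antenna, LHCA1 and LHCA4, which form a pair on the photosystem I core, differed most between genotypes. LHCA4 was 2117 and 1536 CPM in mock wild type, 1220.3 and 866 CPM in ABA-treated wild type, 5814 and 5777 CPM in mock skip-1, and 3822 and 3415 CPM in ABA-treated skip-1. Every skip-1 library lay above every wild type library. Skip-1 had the higher level, by 1.67 ± 0.20, adjusted p = 0.00165 without ABA and 1.79 ± 0.20, adjusted p = 0.000813 with ABA, and both calls stood without each library. LHCA1 was 2125 and 1542 CPM in mock wild type, 1306 and 956 CPM in ABA-treated wild type, 4606 and 4419 CPM in mock skip-1, and 3184 and 2947 CPM in ABA-treated skip-1. It was higher by 1.3 ± 0.19, adjusted p = 0.00351 and 1.44 ± 0.19, adjusted p = 0.0014, again without overlap of the genotypes. LHCA2 and LHCA3, the other pair on the core, were higher by 0.48 ± 0.12 and 0.56 ± 0.14 without ABA and by 0.77 ± 0.12 and 0.73 ± 0.14 with ABA. The calls in mock seedlings were lost for LHCA2 without either library of mock wild type or replicate 2 of mock skip-1 (adjusted p up to 0.141) and for LHCA3 without either library of mock wild type or either library of mock skip-1 (adjusted p up to 0.147).

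With ABA, the 4 major LHCA genes fell in wild type, with a log2 change of −0.70 ± 0.19 for LHCA1, −0.79 ± 0.12 for LHCA2, −0.82 ± 0.14 for LHCA3 and −0.81 ± 0.20 for LHCA4. LHCA1 and LHCA4 lost this call without replicate 1 of mock wild type or replicate 2 of ABA-treated wild type, with adjusted p up to 0.107. In skip-1, LHCA2, LHCA3 and LHCA4 fell (−0.50 ± 0.12, −0.65 ± 0.14 and −0.68 ± 0.20), with calls lost for LHCA2 without replicate 2 of mock skip-1 or either library of ABA-treated skip-1 (adjusted p up to 0.112), for LHCA3 without replicate 2 of ABA-treated skip-1 (adjusted p = 0.0681) and for LHCA4 without either library of mock skip-1 or either library of ABA-treated skip-1 (adjusted p up to 0.158), and LHCA1 changed by −0.56 ± 0.19, adjusted p = 0.055. LHCA1 plus LHCA4 held a larger part of the LHCA total in skip-1. LHCA4 alone held 20.7 and 17.4% in mock wild type, 19.4 and 17.5% in ABA-treated wild type, 31.0 and 30.1% in mock skip-1, and 29.4 and 28.1% in ABA-treated skip-1 of the summed LHCA FPKM. LHCA5 and LHCA6, low-level members that take part in the NADH dehydrogenase-like supercomplex, were at 53.8 to 64.1 CPM and 38.1 to 86.4 CPM, with no call in any comparison.

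In the photosystem I core, the stromal subunits that bind ferredoxin and the subunits that dock the antenna changed to different degrees. PSAH and PSAL form the docking site for the LHCB trimer in state transitions. PSAH2 was 452 and 348 CPM in mock wild type, 331 and 281 CPM in ABA-treated wild type, 874 and 721 CPM in mock skip-1, and 664 and 601 CPM in ABA-treated skip-1. Both genotypes were separate in each condition, and PSAH2 was higher in skip-1 by 1.0 ± 0.16, adjusted p = 0.00475 without ABA and 1.05 ± 0.16, adjusted p = 0.00237 with ABA. PSAL was 1646 and 1621 CPM in mock wild type, 1275 and 1104 CPM in ABA-treated wild type, 2588 and 2647 CPM in mock skip-1, and 1853 and 1916 CPM in ABA-treated skip-1. It was higher by 0.68 ± 0.11, adjusted p = 0.00493 and 0.66 ± 0.11, adjusted p = 0.00332, and all these calls of PSAH2 and PSAL stood without each library. PSAH1, the other PSAH gene, was higher by only 0.33 ± 0.09 and 0.43 ± 0.09, and the call without ABA was lost without any one library. PSAO, another subunit of the docking side, was higher by 0.72 ± 0.16 without ABA and 0.72 ± 0.16 with ABA. These calls were lost for PSAO without replicate 2 of mock wild type or replicate 1 of mock skip-1 (adjusted p up to 0.106) in mock seedlings and for PSAO without replicate 2 of ABA-treated wild type or replicate 1 of ABA-treated skip-1 (adjusted p up to 0.0666) and for PSAH1 without replicate 2 of ABA-treated wild type or either library of ABA-treated skip-1 (adjusted p up to 0.0749) with ABA. With ABA, PSAL fell in wild type (−0.46 ± 0.11) and skip-1 (−0.47 ± 0.11) and PSAH1 in wild type (−0.35 ± 0.09), calls lost for PSAL without replicate 2 of ABA-treated wild type (adjusted p = 0.0651) and for PSAH1 without replicate 2 of mock wild type or replicate 2 of ABA-treated wild type (adjusted p up to 0.0855) in wild type and for PSAL without replicate 2 of mock skip-1 or either library of ABA-treated skip-1 (adjusted p up to 0.079) in skip-1.

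The stromal ridge is made of PSAC, PSAD and PSAE, and PSAD and PSAE are nuclear-encoded in pairs. PSAD2 was 408 and 327 CPM in mock wild type, 187 and 170.1 CPM in ABA-treated wild type, 601 and 575 CPM in mock skip-1, and 401 and 331 CPM in ABA-treated skip-1. It was highest in mock skip-1 and lowest in ABA-treated wild type. PSAD2 was higher in skip-1 by 0.68 ± 0.14, adjusted p = 0.0121 without ABA and 1.03 ± 0.14, adjusted p = 0.00148 with ABA. It fell with ABA with a log2 change of −1.04 ± 0.14 in wild type and −0.68 ± 0.14 in skip-1. PSAD1, which holds 72.4% to 81.8% of the PSAD FPKM, fell with ABA with a log2 change of −0.72 ± 0.12 and −0.72 ± 0.12. Its difference between genotypes was 0.37 ± 0.12, adjusted p = 0.0649 without ABA and 0.38 ± 0.12, adjusted p = 0.0479 with ABA. PSAE1 was higher in skip-1 (0.44 ± 0.12 and 0.41 ± 0.12), whereas its paralog PSAE2 differed by −0.03 ± 0.10 and 0.04 ± 0.10 and was not called. PSAE2 fell with ABA in wild type (−0.38 ± 0.10) and in skip-1 (−0.31 ± 0.10), and PSAE1 changed by −0.27 ± 0.12, adjusted p = 0.0997. Of these calls, those between genotypes were lost for PSAD2 without replicate 2 of mock wild type (adjusted p = 0.0858) and for PSAE1 without either library of mock wild type or either library of mock skip-1 (adjusted p up to 0.157) in mock seedlings and for PSAD1 without either library of mock wild type, replicate 2 of ABA-treated wild type or either library of ABA-treated skip-1 (adjusted p up to 0.264) and for PSAE1 without replicate 2 of ABA-treated wild type or either library of ABA-treated skip-1 (adjusted p up to 0.18) with ABA, and those with ABA for PSAE2 without replicate 2 of mock wild type or replicate 2 of ABA-treated wild type (adjusted p up to 0.0958) in wild type and for PSAD2 without replicate 2 of ABA-treated skip-1 (adjusted p = 0.0585) and for PSAE2 whichever of the 8 libraries was left out (adjusted p up to 0.221) in skip-1.

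PSAF, the plastocyanin docking subunit, and PSAN, a lumenal subunit, did not share the higher level in skip-1. PSAF was 1783 and 1657 CPM in mock wild type, 1468 and 1187 CPM in ABA-treated wild type, 1239 and 1393 CPM in mock skip-1, and 1051 and 1022 CPM in ABA-treated skip-1. In each condition both skip-1 libraries lay below both wild type libraries, with differences of −0.39 ± 0.13, adjusted p = 0.0671 without ABA and −0.36 ± 0.13, adjusted p = 0.066 with ABA, which did not pass the threshold. DESeq2 and the fit with library size alone called PSAF lower in mock skip-1, and the fit without replicate 2 of ABA-treated wild type called it lower with ABA. PSAN differed by −0.31 ± 0.16, adjusted p = 0.209 without ABA. PSAG, which helps to anchor the antenna, differed by 0.03 ± 0.10 and −0.05 ± 0.10 between genotypes with neither called, and fell with ABA with a log2 change of −0.40 ± 0.11 in wild type and −0.47 ± 0.11 in skip-1. PSAF fell in wild type (−0.37 ± 0.13, adjusted p = 0.0446). These ABA calls were lost for PSAF without either library of mock wild type, replicate 2 of ABA-treated wild type or either library of ABA-treated skip-1 (adjusted p up to 0.226) and for PSAG without either library of mock wild type or replicate 2 of ABA-treated wild type (adjusted p up to 0.0927) in wild type and for PSAG without either library of ABA-treated skip-1 (adjusted p up to 0.0698) in skip-1. PSAK had no call in any comparison (1024 to 1647 CPM without ABA and 928 to 1424 with it).

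In photosystem II, the gene of the photoprotective subunit PSBS differed most between genotypes. PSBS was 532 and 437 CPM in mock wild type, 599 and 535 CPM in ABA-treated wild type, 1254 and 1058 CPM in mock skip-1, and 1115 and 972 CPM in ABA-treated skip-1. Every skip-1 library lay above every wild type library, and it was higher in skip-1 by 1.25 ± 0.14, adjusted p = 0.00132 without ABA and 0.88 ± 0.14, adjusted p = 0.00315 with ABA. It was not called with ABA in either genotype (0.23 ± 0.14 in wild type and −0.15 ± 0.14 in skip-1). PSBO2, the minor gene of the manganese-stabilizing protein of the oxygen-evolving complex, was 488 and 390.1 CPM in mock wild type, 417 and 413 CPM in ABA-treated wild type, 882 and 828 CPM in mock skip-1, and 756 and 663 CPM in ABA-treated skip-1. It was higher in skip-1 by 0.96 ± 0.13, adjusted p = 0.00242 and 0.77 ± 0.13, adjusted p = 0.00353, and the calls of PSBS and PSBO2 stood without each library. PSBO1, the major gene, was 3125 and 3153 CPM in mock wild type, 2440.1 and 2093 CPM in ABA-treated wild type, 3631 and 4027 CPM in mock skip-1, and 2848 and 2933 CPM in ABA-treated skip-1. It fell with ABA (−0.47 ± 0.12 in wild type and −0.41 ± 0.12 in skip-1) and differed between genotypes by 0.29 ± 0.12, adjusted p = 0.121 without ABA and 0.35 ± 0.12, adjusted p = 0.0531 with ABA. With ABA, PSBO1 was called higher in skip-1 by DESeq2, with upper-quartile scaling, with library size alone and in the 2-group fit. Its ABA calls were lost for PSBO1 without replicate 2 of mock wild type or replicate 2 of ABA-treated wild type (adjusted p up to 0.0799) in wild type and for PSBO1 without either library of mock wild type, replicate 2 of mock skip-1 or either library of ABA-treated skip-1 (adjusted p up to 0.181) in skip-1.

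The other extrinsic subunits of the oxygen-evolving complex fell with ABA. PSBQ1 was 1169.8 and 1179 CPM in mock wild type, 779 and 784 CPM in ABA-treated wild type, 1284 and 1284 CPM in mock skip-1, and 885 and 872 CPM in ABA-treated skip-1, so that both libraries with ABA lay below both without it in each genotype. PSBQ1 fell with a log2 change of −0.59 ± 0.09, adjusted p = 0.00114 in wild type and −0.55 ± 0.09, adjusted p = 0.00309 in skip-1. PSBQ2 fell with a log2 change of −0.49 ± 0.11 and −0.42 ± 0.11 and PSBP1 with −0.55 ± 0.12 and −0.45 ± 0.12. Between genotypes, PSBQ1 differed by 0.13 ± 0.09 and PSBQ2 by 0.21 ± 0.11 without ABA, neither called, and PSBP1 was higher by 0.42 ± 0.12, adjusted p = 0.0438. Among the small subunits, PSBR, PSBX and PSBY fell with ABA in both genotypes (−0.35 ± 0.11, −0.50 ± 0.12 and −0.49 ± 0.12 in wild type) and PSBW in skip-1 (−0.36 ± 0.11, adjusted p = 0.0394). PSBY was higher in skip-1 in both conditions (0.53 ± 0.12 and 0.48 ± 0.12) and PSBW without ABA (0.36 ± 0.11, adjusted p = 0.0467), and PSBR and PSBX were called in neither. The ABA calls in wild type were lost for PSBR without either library of mock wild type, replicate 2 of ABA-treated wild type or replicate 2 of ABA-treated skip-1 (adjusted p up to 0.149), for PSBX without replicate 1 of mock wild type or replicate 2 of ABA-treated wild type (adjusted p up to 0.063) and for PSBY without replicate 1 of mock wild type or replicate 2 of ABA-treated wild type (adjusted p up to 0.0632). Those in skip-1 were lost for PSBP1 without either library of mock skip-1 or either library of ABA-treated skip-1 (adjusted p up to 0.146), for PSBQ2 without replicate 2 of mock skip-1 or either library of ABA-treated skip-1 (adjusted p up to 0.102) and for PSBR whichever of the 8 libraries was left out (adjusted p up to 0.208). They were also lost for PSBX without replicate 1 of mock skip-1 or either library of ABA-treated skip-1 (adjusted p up to 0.133), for PSBY without replicate 2 of ABA-treated skip-1 (adjusted p = 0.066) and for PSBW without either library of mock wild type, either library of mock skip-1 or either library of ABA-treated skip-1 (adjusted p up to 0.19), the last of these also in the 2-group fit. Between mock genotypes, calls were lost for PSBP1 whichever of the 8 libraries was left out (adjusted p up to 0.228), for PSBW whichever of the 8 libraries was left out (adjusted p up to 0.191) and for PSBY without replicate 2 of mock wild type or replicate 1 of mock skip-1 (adjusted p up to 0.113). The PSBP1 call was also lost with library size alone and in the 2-group fit, and the PSBW call with RLE scaling, library size alone, no filter, the 2-group fit and paralogs summed. Between ABA-treated genotypes, calls were lost for PSBP1 without replicate 2 of ABA-treated wild type or replicate 1 of ABA-treated skip-1 (adjusted p up to 0.0944) and for PSBY without replicate 2 of ABA-treated wild type or either library of ABA-treated skip-1 (adjusted p up to 0.107).

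The Rubisco small subunit comes from RBCS1A on chromosome 1 and from RBCS1B, RBCS2B and RBCS3B, which lie in tandem on chromosome 5 (RBCS1B AT5G38430, chromosome 5, 15383167 to 15385320, minus strand). The coding sequences of the tandem genes share 96.7% to 97.3% of aligned bases with each other and 90.4% to 90.6% with RBCS1A. Their last 120 coding bases are shown because they differ at only 3 columns, marked by capitals.
RBCS1B: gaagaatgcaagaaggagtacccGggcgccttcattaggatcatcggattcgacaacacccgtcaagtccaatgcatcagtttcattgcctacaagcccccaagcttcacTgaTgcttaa
RBCS2B: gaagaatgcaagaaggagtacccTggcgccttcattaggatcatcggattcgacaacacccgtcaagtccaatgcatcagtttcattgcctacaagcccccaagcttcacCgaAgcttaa
RBCS3B: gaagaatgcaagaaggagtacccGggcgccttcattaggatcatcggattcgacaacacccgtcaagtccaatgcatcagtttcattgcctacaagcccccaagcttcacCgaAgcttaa

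RBCS1B was 1524 and 1488 CPM in mock wild type, 466 and 533 CPM in ABA-treated wild type, 982 and 827 CPM in mock skip-1, and 362 and 329 CPM in ABA-treated skip-1. The 4 groups did not overlap, with mock wild type highest and ABA-treated skip-1 lowest. RBCS1B fell with ABA with a log2 change of −1.59 ± 0.13, adjusted p = 2.2e-05 in wild type and −1.39 ± 0.13, adjusted p = 0.000112 in skip-1. It was lower in skip-1 with a log2 difference of −0.74 ± 0.12, adjusted p = 0.00583 without ABA and −0.53 ± 0.12, adjusted p = 0.0137 with ABA, and was the only one of the 47 genes called lower in skip-1 by this test. The call with ABA was lost without replicate 2 of ABA-treated wild type or replicate 2 of ABA-treated skip-1 (largest adjusted p = 0.0883) and with scaling by library size alone. Its share of the summed RBCS FPKM was 10.3 and 11.3% in mock wild type, 3.92 and 5.32% in ABA-treated wild type, 6.05 and 5.73% in mock skip-1, and 3.1 and 2.87% in ABA-treated skip-1.

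RBCS2B was 1961 and 1749.6 CPM in mock wild type, 1039 and 1032 CPM in ABA-treated wild type, 1645 and 1237 CPM in mock skip-1, and 1214 and 1017 CPM in ABA-treated skip-1. It fell with ABA in wild type (−0.84 ± 0.16, adjusted p = 0.00261), changed by −0.37 ± 0.16, adjusted p = 0.11 in skip-1, and differed between genotypes by −0.36 ± 0.16, adjusted p = 0.13 without ABA and 0.11 ± 0.16, adjusted p = 0.626 with ABA. RBCS1A, the most abundant, was 9912 and 9296 CPM in mock wild type, 9142 and 7631 CPM in ABA-treated wild type, 12139 and 11477 CPM in mock skip-1, and 8902 and 9240.0 CPM in ABA-treated skip-1. RBCS1A was not called for ABA (−0.20 ± 0.13, adjusted p = 0.253 in wild type and −0.38 ± 0.13, adjusted p = 0.0555 in skip-1) or for genotype (0.30 ± 0.13 without ABA and 0.11 ± 0.13 with ABA). In skip-1 its ABA change was called lower by DESeq2 (adjusted p = 0.0205), with upper-quartile scaling (0.0172), with library size alone (0.0353) and with the tandem genes summed (0.0459), and in wild type with upper-quartile scaling (0.0327) and library size alone (0.0246). RBCS3B was 4288 and 3250.4 CPM in mock wild type, 3893 and 3003 CPM in ABA-treated wild type, 4986 and 4107 CPM in mock skip-1, and 3820.3 and 3499 CPM in ABA-treated skip-1. Its groups overlapped and no comparison was called, with changes of −0.13 ± 0.18 with ABA in wild type and 0.27 ± 0.18 for genotype without ABA.

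RBCS1B shares 32.2% of its 50-base windows with other members, RBCS2B 21.4%, RBCS3B 18.4% and RBCS1A 1.48%. With the 3 tandem genes summed, the change with ABA was −0.54 ± 0.16 in wild type (adjusted p = 0.0206) and −0.44 ± 0.16 in skip-1 (adjusted p = 0.0632). The sum differed between genotypes by −0.06 ± 0.16 without ABA (adjusted p = 0.818), and under ABA by 0.04 ± 0.16 (adjusted p = 0.862). The lower call of RBCS1B in skip-1 was thus not made for the tandem genes as a whole.

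Short sequence elements were counted in the 250 bases upstream of each annotated start, on both strands, in 27443 promoters of TAIR10.1. The elements were the G-box CACGTG, the ABRE core ACGTGG (which overlaps the G-box where CACGTGG occurs), the I-box GATAAG, the CCA1-binding element AAAAATCT, the evening element AAAATATCT and CCAATC, which has been linked to GLK factors. The G-box occurred upstream of 10 of the 47 genes (21.3%) and of 6.49% of all promoters, and the ABRE core upstream of 13 (27.7%) and of 8.23%. CCAATC occurred upstream of 11 of the 47 (23.4%) and of 10.2% of all promoters, and these were 7 LHCB, 3 LHCA and 1 PSB gene. The I-box occurred upstream of 10 genes (21.3%, against 12.3%), the CCA1-binding element of 5 (10.6%, against 6.69%) and the evening element of 1 (2.13%, against 2.36%). Of the printed windows, LHCB1.1 holds an ABRE core and a CCA1-binding element, LHCB1.3 an ABRE core and CCAATC, LHCB2.2 CCAATC, and LHCB1.2 none of the 6. RefSeq starts are the outermost annotated ends, so these windows may not sit at the start in use, and a match is a description and not a site. Many upstream windows of the 47 genes also overlap another annotated gene. Of the genes with a G-box, this holds for LHCB6, LHCB7, PSAE2, PSAH2 and PSBQ1. It does not hold for LHCA4, LHCB2.3, LHCB4.1, RBCS2B and PSBQ2.

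In mock wild type, replicate 1 had 2.36 times the LHCB1.1 level of replicate 2, and this difference between libraries ran through many of the genes. In all 4 groups library 1 lay above library 2 for 23 of the 47 genes, where 10.4% of all features did, and below it for none, where 12.3% did. The 23 comprised 7 LHCB, 2 LHCA, 7 photosystem I, 5 photosystem II and 2 RBCS genes. Whether libraries of the same number were prepared together is not stated in the labels. The part of this pattern in the results was not tested.

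Between both skip-1 libraries with ABA and both wild type libraries without ABA, 19 of the 47 genes were higher without overlap, where 39.2% of all features were, and 14 were lower, where 37.3% were. Those that were higher included 10 of 15 LHCB genes, 5 photosystem I genes, LHCA1, LHCA4, PSBO2 and PSBS, and those that were lower included LHCB1.3, LHCB1.4, PSBO1 and 3 of 4 RBCS genes. The summed levels of these 2 groups were nearly equal. The count of higher genes is near the share of all features, and the count of lower genes is below it. Neither count is read as a result about the 47 genes.

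Other genes of photosynthesis were read from lists written for this comparison. Over all features tested, 19.5% were called lower and 23.7% higher with ABA in wild type, and 12.1% and 16.3% in skip-1. In skip-1 against wild type, 10.4% were called higher and 10% lower without ABA, and 13.6% and 17.4% with it. The same shares stand beside the counts of the chloroplast, regulator and tissue marker lists below. Of 16 Calvin cycle genes, 7 fell with ABA in wild type and 4 in skip-1, and none rose (0 higher at an unadjusted p under 0.05 with edgeR, and 0 with DESeq2, in either genotype). In skip-1 7 were higher and 2 lower without ABA, and 9 higher and 2 lower with ABA. RCA, the Rubisco activase, was higher in skip-1 by 0.97 ± 0.15, adjusted p = 0.00383 without ABA, FBA1, an aldolase, by 1.3 ± 0.23, adjusted p = 0.00849, a call lost without replicate 2 of mock wild type (adjusted p = 0.0658), and RPE, ribulose-phosphate epimerase, was lower with a log2 difference of −0.77 ± 0.09, adjusted p = 0.00142. GAPA1, a subunit of glyceraldehyde-phosphate dehydrogenase, and PRK, phosphoribulokinase, fell with ABA in wild type with a log2 change of −0.79 ± 0.11 and −0.80 ± 0.12. Of 10 electron transport genes, 2 fell and 1 rose with ABA in wild type, and 3 fell in skip-1. Those 2 falls in wild type are near the share of all features. In skip-1 against wild type, 1 was higher and 3 lower without ABA, and 1 was higher and 5 lower with it. The ferredoxin gene FD2 was lower in skip-1 with a log2 difference of −0.76 ± 0.11, adjusted p = 0.00359 without ABA and −0.79 ± 0.11, adjusted p = 0.0018 with ABA. Of 7 genes for insertion and phosphorylation of the antenna, CAO (the cpSRP43 subunit of the chloroplast signal recognition particle) fell with ABA with a log2 change of −1.08 ± 0.12 in wild type and −0.93 ± 0.12 in skip-1, 3 genes of the list lower in wild type and 2 in skip-1. STN7, the kinase of LHCB2 in state transitions, was higher in skip-1 by 0.84 ± 0.15, adjusted p = 0.00749 and 0.70 ± 0.15, adjusted p = 0.0101, with the call without ABA lost without replicate 2 of mock wild type (adjusted p = 0.0611) and that with ABA without replicate 2 of ABA-treated wild type or replicate 1 of ABA-treated skip-1 (largest adjusted p = 0.0667), among 1 higher and 2 lower without ABA and 3 higher and 1 lower with ABA.

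The chloroplast-encoded partners of these proteins were read in a list of 7, at low levels. Their summed level was 294 and 241 CPM in mock wild type and 445 and 750 CPM in mock skip-1, where the 2 libraries differed widely. How well these libraries capture chloroplast RNA was not tested, so the counts are not set against those of the nuclear genes. None of the 7 genes changed past the threshold with ABA in wild type, and 4 fell with ABA in skip-1. Without ABA 6 of 7 were higher in skip-1, and with ABA none of 7 was. At an unadjusted p under 0.05, edgeR had 0 of 7 with ABA in wild type and 2 higher in ABA-treated skip-1, where DESeq2 called 0 and 1. The gene psaA, a core subunit of photosystem I, was 19.4 and 15.1 CPM in mock wild type, 17.7 and 17.7 CPM in ABA-treated wild type, 47.8 and 80.9 CPM in mock skip-1, and 26.1 and 26.4 CPM in ABA-treated skip-1. Skip-1 had the higher level, by 1.9 ± 0.24, adjusted p = 0.00282 without ABA and by 0.57 ± 0.24 with ABA, the latter not called. The difference of its ABA effects was −1.33 ± 0.34, adjusted p = 0.0865. For that difference edgeR called 0 of the 7 genes, with 5 lower at an unadjusted p under 0.05, and DESeq2 called 5 lower. The Rubisco large subunit gene rbcL was higher in skip-1 by 1.11 ± 0.21, adjusted p = 0.0101 without ABA, a call lost without replicate 2 of mock wild type (adjusted p = 0.0636). Chloroplast features took 0.642% to 0.701% of reads in mock wild type, 0.544% to 0.551% with ABA, 0.883% to 0.948% in mock skip-1 and 0.743% to 0.831% with ABA, and the part of this in the nuclear genes' results was not tested.

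Of 10 regulators of these genes, 9 were tested, and ABI4 was not. GLK1, a transcription factor of antenna and chlorophyll genes, was 133 and 138 CPM in mock wild type, 81.8 and 79.6 CPM in ABA-treated wild type, 162 and 155 CPM in mock skip-1, and 113 and 98.3 CPM in ABA-treated skip-1. It fell with ABA in wild type (−0.75 ± 0.10, adjusted p = 0.000418) and in skip-1 (−0.58 ± 0.10, adjusted p = 0.00306), and was higher in ABA-treated skip-1 (0.39 ± 0.10, adjusted p = 0.0184), a call lost without replicate 1 of ABA-treated wild type, replicate 2 of ABA-treated wild type or replicate 1 of ABA-treated skip-1 (largest adjusted p = 0.134). Its paralog GLK2 was 41.6 and 65.4 CPM in mock wild type, 31.3 and 17.2 CPM in ABA-treated wild type, 190.0 and 135 CPM in mock skip-1, and 133 and 65.7 CPM in ABA-treated skip-1. GLK2 was higher in skip-1 by 1.6 ± 0.44, adjusted p = 0.0496 without ABA, a call lost in 6 of 8 fits with 1 library left out and under 6 other settings, and by 2.03 ± 0.46, adjusted p = 0.0192 with ABA, lost without replicate 2 of ABA-treated wild type or replicate 1 of ABA-treated skip-1 (largest adjusted p = 0.0887). CCA1, a morning gene of the circadian clock that binds LHCB promoters, was 0.955 and 0.810 CPM in mock wild type, 9.01 and 4.7 CPM in ABA-treated wild type, 35.8 and 9.36 CPM in mock skip-1, and 45.0 and 40.0 CPM in ABA-treated skip-1. Every skip-1 library lay above every wild type library, with a difference of 4.68 ± 0.78, adjusted p = 0.0109 without ABA, lost without replicate 1 of mock wild type or replicate 2 of mock wild type (largest adjusted p = 0.0873). HY5, a factor of light responses, was lower in mock skip-1 (−1.38 ± 0.37, adjusted p = 0.039), a call lost without replicate 1 of mock wild type, replicate 2 of mock wild type, replicate 1 of mock skip-1 or replicate 2 of mock skip-1 (largest adjusted p = 0.181). PIF3 and PIF1 are phytochrome-interacting factors. PIF3 rose with ABA in wild type (1.33 ± 0.16) and skip-1 (1.58 ± 0.16), and PIF1 fell (−1.68 ± 0.16 and −0.60 ± 0.15, the latter lost without replicate 1 of mock skip-1 or replicate 2 of ABA-treated skip-1 (largest adjusted p = 0.116)). In all, 2 regulators rose and 3 fell with ABA in wild type, 1 rose and 2 fell in skip-1, and against wild type the mutant had 2 higher and 1 lower without the hormone and 4 higher with it. The part of these regulators in the levels of the 47 genes was not tested.

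Markers of other tissues were also read. The summed level of 13 root markers was 118 to 175 CPM in mock wild type and 167 to 208 with ABA. In skip-1 it was 136 to 160.1 in mock and 165 to 209 with ABA, and no marker was at 0 in any library. SULTR1_2 alone gave 50.5 to 85.0 CPM in mock wild type and 112 to 154 CPM with ABA. In skip-1 it gave 63.1 to 79.9 CPM in mock and 108 to 158 CPM with ABA, so the sum largely follows 1 gene. Of the 13, 3 rose and 6 fell with ABA in wild type, 1 rose and 5 fell in skip-1, 1 was higher and 2 were lower in mock skip-1, and 2 were lower with ABA. The summed level of 6 epidermis and guard cell markers was 336 to 352 CPM in mock wild type and 354 to 358 with ABA. In skip-1 it was 366 to 382 CPM in mock and 336 to 361 CPM with ABA. Much of this sum was PDF1, at 176 to 179 CPM in mock wild type and 234 to 252 CPM with ABA. In skip-1 PDF1 was at 231 to 236 CPM in mock and 211 to 235 CPM with ABA. Of the 6, 2 rose and 3 fell with ABA in wild type, 1 fell in skip-1, 1 was higher and 1 lower in mock skip-1, and 1 was higher with ABA. The ranges of the genotypes overlap for the root markers in both conditions. The epidermis and guard cell sums did not overlap in mock seedlings, where both skip-1 libraries were higher, and overlapped with ABA. The part of tissue make-up in the results was not tested.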

How the data were processed

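RNA of Arabidopsis seedlings was sequenced in 8 libraries, 2 in each of 4 groups, made with a non-directional kit per the labels' protocols. The authors deposited read counts per gene in 1 table and FPKM in another, with columns named per the file headers. The submitters' processing notes name Bowtie2 2.2.3, TopHat2 2.0.12, HTSeq 0.6.1 and the TAIR10 build; the sources used here give neither options nor the strand setting, and reads of overlapping antisense genes cannot be told apart. The deposited FPKM equalled the count divided by gene length and column total in all 24554 features counted in at least 2 libraries (tolerance 1e-06). The count table holds 72 unannotated features, which stayed in the fit.

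Counts of 33674 features were filtered with edgeR 4.0.16 (R 4.3.3), leaving 21008, and fitted by its robust quasi-likelihood test with TMM scaling, 1 coefficient per group and 4 residual degrees of freedom. P-values were adjusted by Benjamini-Hochberg within each comparison, at a threshold of 0.05. Standard errors are the log2 fold change over the root of the F statistic. On data simulated for ABA in wild type with 21008 genes, the fit recovered 88 of 100 genes changed by 1 and 97 of 100 changed by 2 on the log2 scale, and called 16 of 20525 unchanged genes. The changed genes were few, lay above a cutoff on level and were split equally up and down. In the data, 43.1% of features were called in this comparison, so the simulated rates may not carry over. Alternatives were other scalings, no filter, DESeq2 1.42.0, a replicate block, 2-group fits, summed paralogs and leaving out each library. Totals per library were 20870110 to 23640113 counts, and precision for genes at a few CPM is low.

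The 47 genes and the lists of other genes were chosen with earlier results of these data known. Named genes were all RBCS genes, the 4 genes of each class with the smallest adjusted p in a comparison, close paralogs, genes called against their class, the 3 largest differences of the ABA effects each way, and at most 3 genes per comparison from each other list; the remaining members are named so that all 47 are accounted for. Promoters and coding sequences were read from TAIR10.1 with Biopython 1.88. Replicates differed by 13.1 to 21.6 times the counting variance, so none was a duplicate.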

Additional observations from a re-analysis of the deposited data

Results flagged for a closer look

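The ABA effects differed between genotypes by 1.23 on the log2 scale for LHCB1.4 (edgeR quasi-likelihood test of the difference, adjusted p = 0.0405), as skip-1 fell less than wild type. For PIF1, a phytochrome-interacting factor among the 9 tested regulators, they differed by 1.08 (adjusted p = 0.0414), and PIF1 was 17.8 and 17.3 CPM in mock wild type, 5.69 and 5.22 CPM in ABA-treated wild type, 25.4 and 23.4 CPM in mock skip-1, and 18.4 and 13.8 CPM in ABA-treated skip-1. The PIF1 call was lost without each library in turn except replicate 2 of ABA-treated skip-1, with adjusted p up to 0.118. The LHCB1.4 call was likewise lost without each library in turn except replicate 2 of mock skip-1. The fits that lost it gave differences of 1.00 to 1.44. No other gene of the antenna, photosystem and Rubisco list was called for this difference, where 3.07% of all features were called either way. The LHCB1.4 call is therefore not read as a result about that list. The cause of the LHCB1.4 or the PIF1 difference was not tested.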

How the results depend on the processing

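None of the 113 calls of the 47 genes reversed under any alternative. Calls kept were 110 with RLE scaling, 112 with upper-quartile scaling, 110 with library size alone, 113 with TMM factors computed without the 47 genes and the chloroplast genes, 108 with no filter, 112 with DESeq2 and 99 of 112 with only the libraries of the 2 groups compared. With close paralogs summed, 53 of 54 were kept, and with 1 library left out, 83 to 106 of 113.

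Genes higher with ABA in skip-1 numbered 0 with upper-quartile scaling and 0 with 2-group fits, against 1. Genes lower in mock skip-1, 1 in the reported fit, numbered 2 with library size alone, 2 with DESeq2 and 0 with paralogs summed. Genes lower in ABA-treated skip-1, also 1, numbered 0 with library size alone and 0 with paralogs summed. The difference of the ABA effects was called for 0 with paralogs summed, which joins LHCB1.4 to its family. The other causes were not tested.

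With the replicate number as a block, all 113 calls were kept, 37 genes fell with ABA in wild type and 36 in skip-1, 28 were higher and 4 lower in mock skip-1, and 32 were higher and 2 lower with ABA. Added ABA calls included LHCB1.1, LHCB2.2 and LHCB2.3 in both genotypes and LHCB2.1, LHCA1, RBCS1A and RBCS2B in skip-1, all lower. Deviations of same-numbered libraries correlated at 0.112 to 0.258 over the 6 pairs of groups (0.0826 to 0.892 over the 47 genes). With 2 libraries a group and no label that equal numbers were handled together, the design does not establish pairing.

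With 1 library left out, genes called lower with ABA numbered 17 to 33 in wild type and 10 to 25 in skip-1, and genes called higher 0 to 1 in each. Genes higher in skip-1 numbered 12 to 23 without ABA and 17 to 31 with ABA, genes lower 1 to 2 and 0 to 1, and the difference of the ABA effects 0 to 1. Of 122 uncalled values of the 47 genes, 46 changed sign under at least 1 alternative, 29 of them among the 46 uncalled differences of the ABA effects. For RBCS genes the ranges with 1 library left out were −0.36 to 0.059 for RBCS3B with ABA in wild type, −0.013 to 0.25 for RBCS1A, −0.026 to 0.23 for RBCS2B and −0.091 to 0.29 for RBCS3B between genotypes with ABA, and −0.39 to 0.029 for the RBCS3B difference of ABA effects. With 1 library left in a group, its spread is taken from the other groups. LHCB7 and LHCB4.3 were at under 20 CPM in every library. With ABA in wild type, their approximate standard errors were 0.24 and 0.17. LHCB1.1 and LHCB2.1, at higher levels, had 0.48 and 0.53.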
